A study of Mus musculus with 12 samples.

Results

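This comparison sets sorted IL-25+ epithelial cells of the mouse gallbladder against IL-25- epithelial cells of the same organ, across all genes. The rule takes the 3 gallbladder IL-25+ libraries and the 3 gallbladder IL-25- libraries, which are 6 of the 12 libraries of the series. The other 6 are the same gates in the proximal small intestine, used here only to ask where the gallbladder differs. All animals were Flare25 mice, whose cells report the cytokine gene Il25 by a red fluorescent protein, and all sorted cells were live, single and EpCAM+. The labels of both gallbladder groups list an agent labelled HDM AF647, given 1 day before collection, and those of the intestine do not. Another label field describes every sample as taken at homeostasis. The sample labels used here give no age, and do not say whether libraries came from separate mice or from pools. The p-values below therefore measure only the spread between these libraries, which may be technical. The IL-25- gate holds every EpCAM+ cell without reporter signal, so it is a mixture rather than a purified cell type. In such bulk samples, fewer cells of a type and less RNA per cell cannot be told apart.

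Tuft cells are rare epithelial cells with a stiff apical bundle of microvilli, found in the gut, airway, bile ducts and gallbladder. They need the transcription factor Pou2f3, sense luminal compounds through a taste-like cascade that ends in the cation channel Trpm5, and release IL-25, leukotrienes and acetylcholine. IL-25 acts on group 2 innate lymphoid cells, whose IL-13 feeds back on the epithelium. The other gallbladder epithelial cells are columnar biliary cells that concentrate bile by taking up salt and water, secrete bicarbonate and mucus, and carry the keratins Krt7 and Krt19 and the lineage factor Sox17.

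Library totals ran from 23703449 to 30957874 counts in the IL-25+ group and from 31022526 to 64736650 in the IL-25- group. Mitochondrially encoded genes took 7.13, 8.66 and 8.83% of counts in IL-25+ replicates 1, 2 and 3, and 11.2, 14.2 and 25% in the IL-25- replicates, so the groups did not overlap in this share. Levels are given as CPM, counts scaled to an equal library total, always for replicates 1, 2 and 3 in that order. IL-25- replicate 1 carried intestinal transcripts: over 25 enterocyte genes, its level had a median of 6.19% of the mean in intestinal IL-25- epithelium. The other IL-25- replicates had 0.535 and 0.171%, and the IL-25+ replicates had 0.0588, 0.189 and 0.223%. Counts and medians of the gene lists below are also given without a library where they differ by over 1.5 times, or where this library bears on the list.

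**Figure D1:**
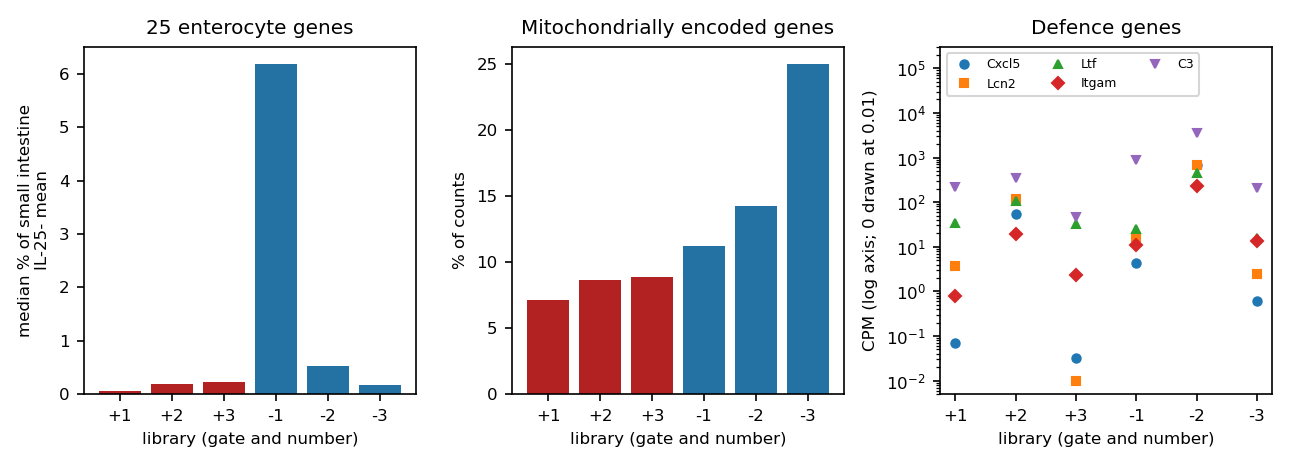
The 6 gallbladder libraries (horizontal axis, gate and number): left, median level of 25 enterocyte genes as a percent of the mean in small intestinal IL-25- epithelium; middle, percent of counts from mitochondrially encoded genes; right, CPM of 5 defence genes (log axis, 0 drawn at 0.01). IL-25- replicate 1 stands apart at 6.19% on the left, IL-25- replicate 3 is highest in the middle at 25%, and replicate 2 of each gate is the highest library of its gate on the right.

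Of 14389 genes tested, 3782 (26.3%) passed an adjusted p of 0.05 in edgeR's quasi-likelihood test with Benjamini-Hochberg adjustment, the test behind every adjusted p of this comparison. Of all genes tested, 13.1% (1888 genes) were higher in IL-25+ cells and 13.2% (1894 genes) were lower, with a median log2 fold change of -0.03 over all genes. These shares are the background against which each list is read. Without IL-25- replicate 1, 2891 of 14979 genes (19.3%) passed, and 2759 genes passed in both fits in the same direction. Changes of at least 2 on the log2 scale were found for 1018 of the higher and 1140 of the lower genes. Among all 14389 genes tested, the groups did not overlap for 3451 genes higher and 2840 genes lower in IL-25+ cells. Groups without overlap, named for many genes below, were therefore common in these libraries.

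**Figure D2:**
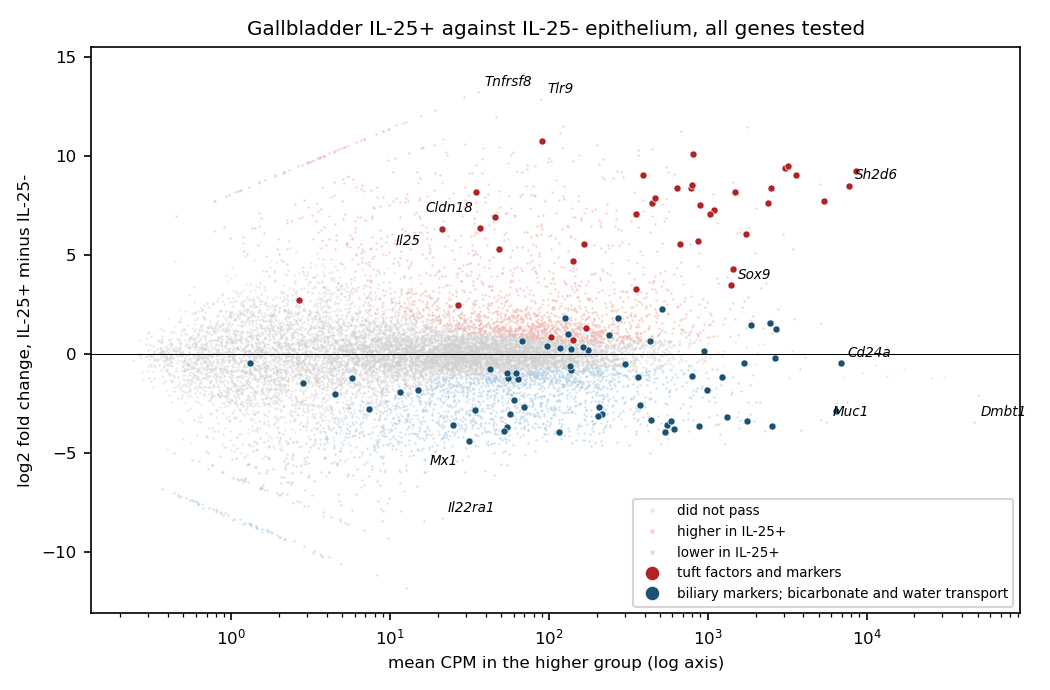
Fitted log2 fold change (IL-25+ over IL-25-, vertical axis) against mean CPM in the higher group (horizontal log axis), one point for each of the 14389 genes tested. Pale red and pale blue points passed as higher (1888) or lower (1894), red circles are tuft factors and markers, dark blue circles are biliary markers and transport genes, and the straight lines of points at low levels are genes at or near 0 in one group.

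The gate gene Il25, which encodes the cytokine the reporter follows, had 7.75, 13.7 and 8.3 CPM in the IL-25+ libraries and 0.741, 0.0322 and 0 CPM in the IL-25- libraries. The groups did not overlap, and the log2 fold change (± its standard error, here and below) was 5.17 ± 1.41 (adjusted p = 0.0257). The call was lost without IL-25- replicate 2 (0.0645) and without IL-25+ replicate 2 (0.0715); here and below the value in parentheses after such a setting is its adjusted p. The markers of the tissue and of the sorted cell went with the labels. Epcam, the surface protein used in the sort, was present at 1947, 1824 and 1826 CPM in the IL-25+ and 703, 573 and 554 CPM in the IL-25- libraries. The biliary keratin Krt19 was present in every gallbladder library, at 226, 166 and 156 CPM in the IL-25+ and 2552, 1531 and 1204 CPM in the IL-25- libraries. The tuft kinase Dclk1, which binds microtubules, stood at 7859.6, 9338 and 8677 CPM in the IL-25+ libraries against 26.8, 12.3 and 2.2 CPM (9.25 ± 0.84, adjusted p = 0.000113). The 8 tuft markers read to check the label, Dclk1, Trpm5, Pou2f3, Avil, Gfi1b, Il17rb, Alox5ap and Sh2d6, were higher in the IL-25+ group.

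**Figure D3:**
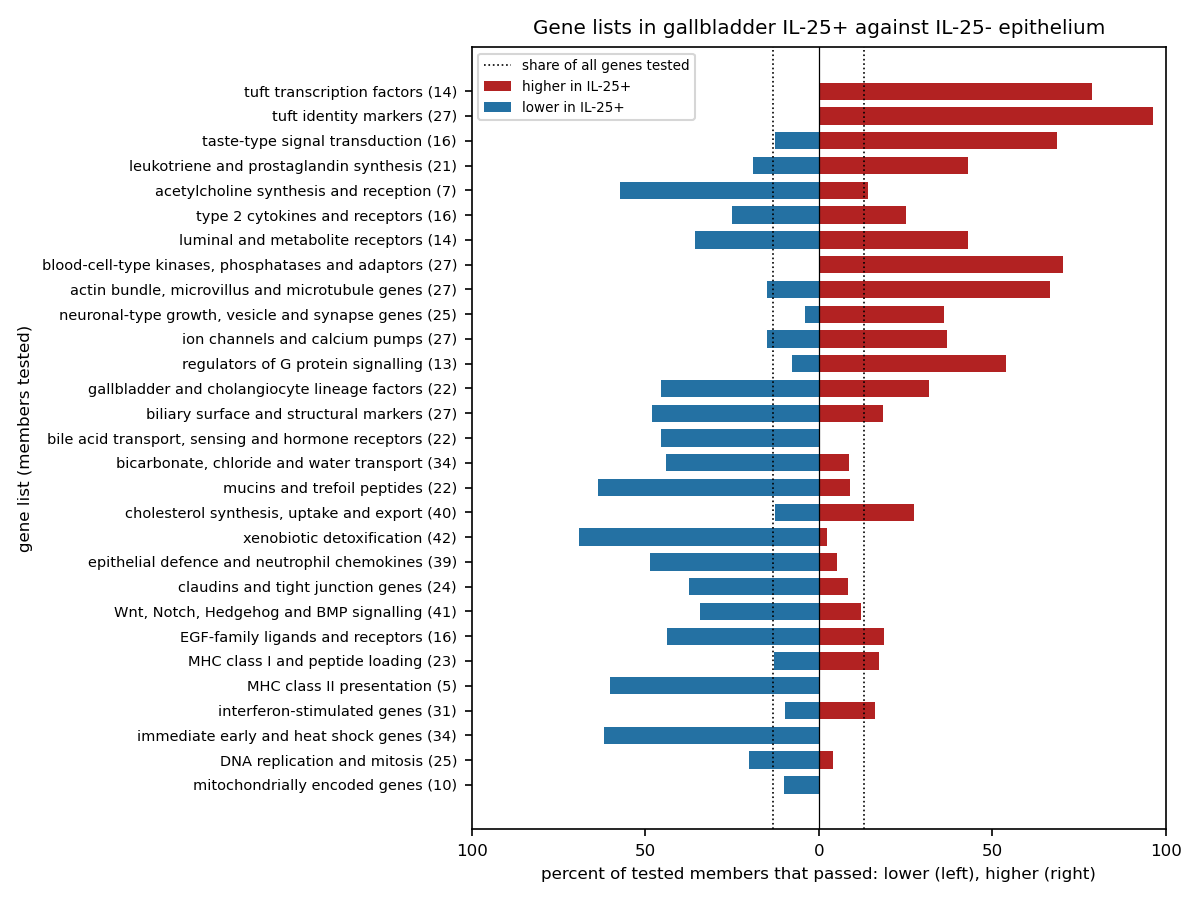
Percent of the tested members of each gene list (rows, number tested in parentheses) called lower in IL-25+ cells (blue bars, to the left) or higher (red bars, to the right). Dotted lines mark the shares over all genes tested, 13.2% lower and 13.1% higher. The tuft factor and tuft marker lists pass the line on the right only, and the mucin, detoxification and immediate early lists that on the left only. Some of the other lists, among them the luminal receptors and the lineage factors, pass both lines, and others do not.

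Most transcription factors of the tuft lineage were higher in IL-25+ cells. Of 14 tested factors 11 rose, none fell and 3 did not pass, with a median log2 fold change of 4.99 (12 rose without IL-25- replicate 1, with a median of 6.01). Pou2f3, the factor tuft cells require, had 1184, 1174 and 948 CPM in the IL-25+ libraries and 12.6, 6.48 and 1.6 CPM in the IL-25- libraries. The lowest IL-25+ library was far above the highest IL-25- library (7.26 ± 0.64, adjusted p = 9.16e-05). 1810046K07Rik, a coactivator that works with Pou2f3, had 407, 369 and 280.2 against 2.41, 1.9 and 2.55 CPM (7.09 ± 0.33, adjusted p = 9.59e-06). Colca2, another coactivator of the same factor, was already at 51.9, 78 and 99 CPM in the IL-25- libraries, with 170.2, 123 and 130.5 CPM in the IL-25+ libraries. That difference did not pass (0.68 ± 0.33, adjusted p = 0.181; 0.0265 without IL-25- replicate 3), although the groups did not overlap. The largest fitted rise among the factors was that of Hmx3, a homeobox gene, with 139, 70.3 and 62.1 CPM against 0.0618, 0.0322 and 0.0286 CPM (10.76 ± 0.57, adjusted p = 1.05e-05). Its neighbour in the family, Hmx2, went from 0, 0.0322 and 0.286 to 32.5, 38.1 and 33.3 CPM (8.20 ± 1.15, adjusted p = 0.00108). Gfi1b, a zinc finger repressor known from blood cells, was at 490.4, 335 and 349 CPM in the IL-25+ libraries, and the highest IL-25- value was that of replicate 1, at 1.73, 0.193 and 0.0286 CPM (9.04 ± 1.03, adjusted p = 0.000508). Spib, an ETS factor of B cells and of other epithelial lineages, had 3804, 3012 and 2367 against 6.41, 5.74 and 0.802 CPM (9.41 ± 0.74, adjusted p = 5.32e-05).

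Sox9, Nfatc1, Etv1, Ascl2 and Runx1 of the same list also rose. Sox9, a progenitor and biliary factor, had 1783, 1233 and 1204 CPM against 136, 90.5 and 112 CPM, so it was well expressed in both groups (3.48 ± 0.26, adjusted p = 4.7e-05). Nfatc1, a calcium-regulated factor, rose by 3.26 ± 0.22 (adjusted p = 2.53e-05) and Etv1, an ETS factor, by 4.68 ± 0.47 (adjusted p = 0.000184) on the log2 scale. Ascl2, a stem cell factor of the gut, rose from 0.772, 0.193 and 2.09 to 56.9, 57.2 and 30.8 CPM (5.30 ± 0.86, adjusted p = 0.00223). Runx1, a blood cell factor, was at 65.3, 64.3 and 53.2 CPM in the IL-25- libraries and rose by 1.33 ± 0.21 (adjusted p = 0.00223). Zfp710 (0.83 ± 0.29, adjusted p = 0.0658; 0.0310 without IL-25- replicate 1) and the endocrine factor Insm1 (2.7 ± 1.95, adjusted p = 0.361) did not pass. Insm1 had 4.58, 3.46 and 0.0323 CPM in the IL-25+ libraries, the lowest in replicate 3, and 1.19, 0.0322 and 0 CPM in the IL-25- libraries.

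Tuft cell marker genes rose almost without exception: 26 of 27 tested markers were called higher, none lower, and the median log2 fold change was 7.61. The summed level of the list was between 52435 and 55966 CPM in the IL-25+ libraries and between 7220 and 8479 CPM in the IL-25- libraries, most of the latter from Cd24a, which did not pass the test. Without IL-25- replicate 1, 26 markers were still called and the median was 8.72. That library was the highest of the 3 IL-25- libraries for 21 of the 27 markers, against 47.0% of all genes tested, and the median of the list was larger without it. Whether its intestinal transcripts account for that was not tested. Sh2d6, an adaptor with an SH2 domain, had 8838, 6810.1 and 7613 CPM in the IL-25+ libraries and 51.4, 6.61 and 4.27 CPM in the IL-25- libraries. The groups did not overlap (8.51 ± 1.03, adjusted p = 0.000653; 10.28 without IL-25- replicate 1). Rgs13, a brake on G protein signalling, had 1870.0, 4589 and 3147 against 6.26, 2.71 and 3.12 CPM (9.51 ± 0.54, adjusted p = 1.26e-05). Avil, the actin-binding protein advillin, had 2895, 2179 and 2459 against 13.2, 5.51 and 2.55 CPM (8.39 ± 0.57, adjusted p = 2.76e-05). Siglecf, a sialic acid receptor otherwise known from eosinophils, went from 0.34, 1.06 and 0.601 to 904, 824 and 693 CPM (10.13 ± 0.50, adjusted p = 1.05e-05). Kctd12, a subunit that modulates GABA-B receptors, had 612, 649 and 651 CPM against 2.9, 1.81 and 0.544 CPM (8.41 ± 0.52, adjusted p = 1.75e-05). In all of these genes every IL-25+ library lay above every IL-25- library.

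Cd24a, a surface glycoprotein used to enrich intestinal tuft and endocrine cells, was the marker that did not pass. It had 3203, 7419 and 6402 CPM in the IL-25+ libraries and 5863, 7238 and 7716 CPM in the IL-25- libraries (-0.46 ± 0.35, adjusted p = 0.384). The groups overlapped, so in the gallbladder Cd24a was abundant in both gates. Krt18, a keratin of simple epithelia that is enriched in tuft cells, had the smallest fitted rise of the called markers, from 956, 673 and 624 to 3012, 2000.3 and 2405 CPM (1.58 ± 0.22, adjusted p = 0.000997). Cd300lf, a lipid-binding surface receptor, had 502, 461 and 428 against 3.94, 1.1 and 0.458 CPM (7.88 ± 0.69, adjusted p = 8.91e-05). Sh2d7, a relative of Sh2d6, had 2714, 2576 and 1919 against 35.5, 0.903 and 0.372 CPM (7.61 ± 1.75, adjusted p = 0.0189), a call that was lost with no filter on low counts (0.124). Its exons share 227 bases with the opposite-strand gene Cib2, and without strand in the counts the reads of that stretch cannot be assigned to either.

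**Figure D4:**
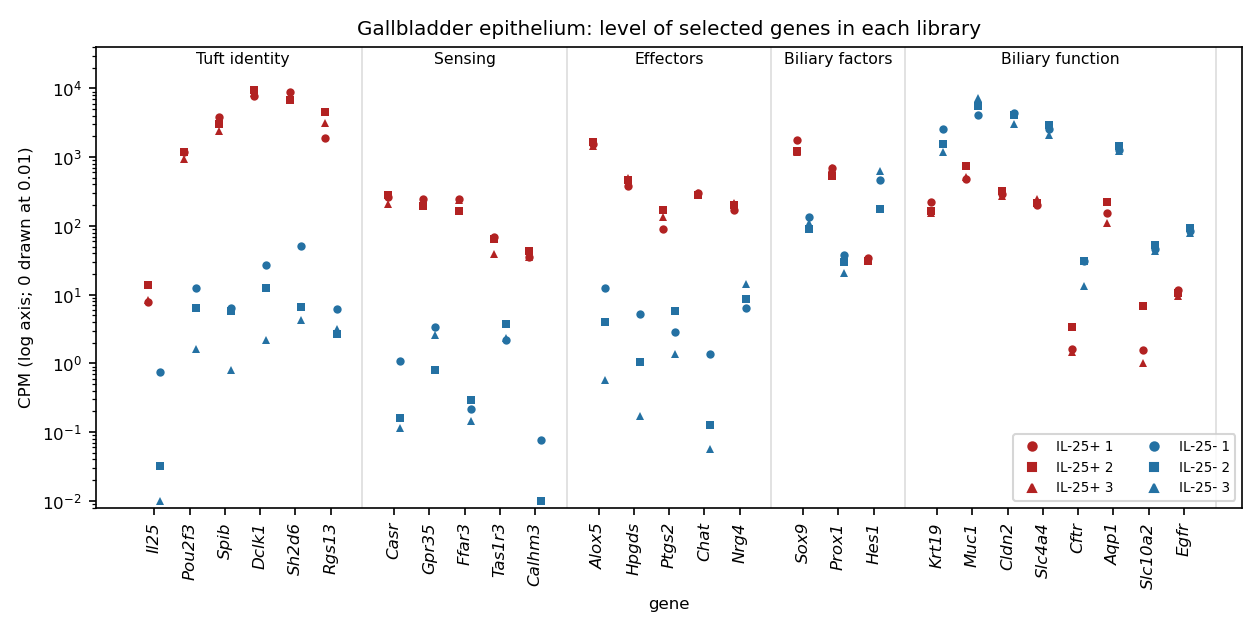
CPM (log axis, 0 drawn at 0.01) of selected genes in each library, with IL-25+ replicates in red and IL-25- replicates in blue, 1 symbol per library. Every gene shown has its 3 red symbols on one side of its 3 blue symbols: tuft, sensing and effector genes higher in IL-25+ cells, and the biliary function genes lower.

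Pou2f3 belongs to the POU family, whose members bind the octamer ATGCAAAT (ATTTGCAT on the other strand). Examples of genes with a perfect match near their start are shown: Hpgds and Kctd12 from the tuft markers, Il4ra because it holds the octamer and was lower, and Dusp1 and Btg2 from the stress-response list for a second motif. Windows of 250 bases before to 50 bases after the RefSeq start of each gene (GRCm38.p6) were searched on both strands for the octamer, and for the cyclic AMP response element TGACGTCA, which reads the same on both strands. The octamer was found in 1 of 12 tuft transcription factors with a window (1810046K07Rik) and in 2 of 23 tuft markers (Hpgds and Kctd12). It was also in 2 of 27 immediate early and heat shock genes (Egr2 and Gadd45a). Shares were larger in other lists: 4 of 20 taste-type genes, 3 of 17 type 2 cytokines and receptors, and 2 of 13 gallbladder and bile duct lineage factors. Biliary surface and structural genes held it in 2 of 17. None of 23 actin bundle and microvillus genes and none of 34 bicarbonate, chloride and water transport genes held it. A match was therefore not particular to the tuft lists. Among genes with a window, it was in 21 of 718 that rose by at least 2 on the log2 scale (2.92%). It was in 19 of 824 that fell by at least as much (2.31%) and in 182 of 10521 tested genes (1.73%). Counted by window rather than by gene, it was in 570 of all 32851 windows (1.74%). The capitals mark the motif, and the sequences run 5' to 3' along the gene's strand.
Hpgds, chr6:65144681-65144980, minus strand: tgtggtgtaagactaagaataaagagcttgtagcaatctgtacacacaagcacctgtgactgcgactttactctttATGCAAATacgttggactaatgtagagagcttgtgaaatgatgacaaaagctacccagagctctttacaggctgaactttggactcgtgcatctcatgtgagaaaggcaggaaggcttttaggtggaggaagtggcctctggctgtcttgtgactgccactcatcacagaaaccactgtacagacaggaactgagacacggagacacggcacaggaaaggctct
Kctd12, chr14:102982588-102982887, minus strand: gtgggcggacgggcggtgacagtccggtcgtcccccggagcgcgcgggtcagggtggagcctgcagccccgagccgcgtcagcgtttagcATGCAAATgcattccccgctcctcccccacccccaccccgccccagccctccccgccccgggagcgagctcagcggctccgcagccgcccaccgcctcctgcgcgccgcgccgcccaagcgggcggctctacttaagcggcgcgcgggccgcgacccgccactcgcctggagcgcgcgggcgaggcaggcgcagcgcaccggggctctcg
Il4ra, chr7:125552021-125552320, plus strand: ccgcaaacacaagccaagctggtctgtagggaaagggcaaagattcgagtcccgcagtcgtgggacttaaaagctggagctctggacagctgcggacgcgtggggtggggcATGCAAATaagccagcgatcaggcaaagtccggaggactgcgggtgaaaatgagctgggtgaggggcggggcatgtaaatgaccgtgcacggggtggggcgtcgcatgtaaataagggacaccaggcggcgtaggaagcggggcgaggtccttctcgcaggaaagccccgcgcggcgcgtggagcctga
Hpgds and Kctd12 were higher in IL-25+ cells and Il4ra, described below, was lower, so a match occurred in genes of either direction. The calcium-activated channel relative Ano7 and the receptor Tlr9, which both rose, also hold the octamer in their window. The response element was in 2 of 27 immediate early and heat shock genes, Dusp1 and Btg2. Over all tested genes with a window it was in 384 of 10521 (3.65%). It was in 16 of 718 that rose by at least 2 on the log2 scale (2.23%). Among those that fell by at least as much it was in 21 of 824 (2.55%), so both shares were below that of all tested genes. Counted by window, it was in 588 of all windows (1.79%).
Dusp1, chr17:26508423-26508722, minus strand: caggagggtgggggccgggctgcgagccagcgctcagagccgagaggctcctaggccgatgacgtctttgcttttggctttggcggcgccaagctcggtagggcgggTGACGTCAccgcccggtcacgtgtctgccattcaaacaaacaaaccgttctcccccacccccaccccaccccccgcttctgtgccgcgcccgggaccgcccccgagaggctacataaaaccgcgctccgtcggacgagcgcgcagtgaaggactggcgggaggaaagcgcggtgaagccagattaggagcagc
Btg2, chr1:134079106-134079405, minus strand: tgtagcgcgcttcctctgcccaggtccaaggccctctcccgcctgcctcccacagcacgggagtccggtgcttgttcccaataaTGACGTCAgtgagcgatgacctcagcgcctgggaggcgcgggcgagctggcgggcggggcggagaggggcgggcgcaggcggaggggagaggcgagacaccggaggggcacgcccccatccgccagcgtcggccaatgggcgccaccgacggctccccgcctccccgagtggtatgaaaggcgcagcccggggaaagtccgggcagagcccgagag
These matches are descriptions of letters in a short window, and no binding was measured.

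The taste-like signalling cascade was largely present in IL-25+ cells. Of 16 tested members 11 were higher, 2 lower (1 without IL-25- replicate 1 or 2 or without IL-25+ replicate 2 or 3) and 3 did not pass, with a median log2 fold change of 2.53. Trpm5, the cation channel at the end of the cascade, had 5356, 5714 and 5080.0 CPM in the IL-25+ libraries and 51.3, 9.38 and 12.2 CPM in the IL-25- libraries, the highest of the latter in replicate 1 (7.72 ± 0.68, adjusted p = 9.26e-05). The G protein subunits differed in level. Gnai2, an inhibitory alpha subunit, had 1822, 1407 and 1127 against 266, 259 and 140.1 CPM, while Gnat3, the taste alpha subunit gustducin, had 30.1, 14.8 and 35.8 against 6.97, 4.06 and 2.55 CPM. Their changes were 2.60 ± 0.26 (adjusted p = 0.000167) and 2.46 ± 0.48 (adjusted p = 0.00596). Gng13, the gamma subunit that pairs with gustducin, had 19.8, 20.0 and 23.5 against 0.633, 0 and 0.0573 CPM (6.33 ± 1.14, adjusted p = 0.00389). Tas1r3, the shared subunit of sweet and umami receptors, had 69.2, 63.6 and 38.9 against 2.18, 3.71 and 2.32 CPM (4.24 ± 0.41, adjusted p = 0.000142). Calhm3, part of the ATP release channel of taste cells, was at 34.8, 42.7 and 35.7 CPM in the IL-25+ libraries and at 0.0772, 0 and 0 CPM in the IL-25- libraries (9.86 ± 0.82, adjusted p = 6.8e-05).

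Isoforms within the cascade moved in opposite directions. Phospholipase Plcb2, the taste isoform, had 234, 227 and 176 CPM against 4.97, 0.967 and 0.0859 CPM (6.65 ± 1.05, adjusted p = 0.00241), and its call was lost with no filter on low counts (0.0561). The related Plcb3 fell, from 131, 86.7 and 90.6 CPM in the IL-25- libraries to 49.2, 42.3 and 39.4 CPM (-1.38 ± 0.24, adjusted p = 0.00308). Among the inositol trisphosphate receptors, which release calcium from the endoplasmic reticulum, Itpr2 rose from 71.5, 49.5 and 36.2 to 1924, 2043 and 1978 CPM (5.12 ± 0.24, adjusted p = 9.59e-06). Itpr1 rose by 1.83 ± 0.29 (adjusted p = 0.00187). Itpr3, the isoform of sweet, bitter and umami taste cells, had 104, 67.5 and 76.1 CPM against 154, 145 and 84.1 CPM, with overlapping groups (-0.75 ± 0.24, adjusted p = 0.0487). Its call was lost with relative log expression size factors (0.0583), with no filter on low counts (0.0685), without IL-25- replicate 1 (0.148), without IL-25- replicate 2 (0.138), without IL-25+ replicate 2 (0.154), without IL-25+ replicate 3 (0.148) and without mitochondrial genes (0.0642). The bitter receptor Tas2r138 had 23, 16 and 27 counts in the IL-25+ libraries and none in the IL-25- libraries, at least 34.6-fold higher against a floor of 3 counts over the group. That call was lost with the replicate block (0.0663), without IL-25- replicate 1 (0.0731), without IL-25- replicate 2 (0.0739), without IL-25+ replicate 1 (0.0589) and without IL-25+ replicate 2 (0.0535).

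Receptors for luminal and metabolic signals split evenly: 6 of 14 tested were higher and 5 lower, with a median of -0.86 (0.12 among the members left by the stricter filter). It was -0.41 and -1.42 without IL-25- replicates 1 and 2, and -1.43 without IL-25+ replicate 3. Ffar3, which senses fatty acids of short chain length, had 249, 167 and 238 CPM in the IL-25+ libraries and 0.216, 0.29 and 0.143 CPM in the IL-25- libraries, with no overlap (9.84 ± 0.36, adjusted p = 5.43e-06). Casr, the calcium-sensing receptor, had 267, 284 and 207 against 1.1, 0.161 and 0.115 CPM (8.89 ± 0.75, adjusted p = 7.4e-05). Gpr35, a receptor for tryptophan metabolites, had 249, 196 and 196 against 3.38, 0.806 and 2.55 CPM (6.39 ± 0.53, adjusted p = 7.25e-05). All 3 receptors were near 0 in the IL-25- gate. The vomeronasal receptor Vmn2r26 had 168, 72 and 50 counts in the IL-25+ libraries and 0, 2 and 0 in the IL-25- libraries, a ratio of 228 (95% interval 62.6 to 1893), where the interval covers counting error only (adjusted p = 0.013). The orphan receptor Gprc5c had 794, 617 and 675 against 65.1, 63.7 and 35.9 CPM (3.54 ± 0.22, adjusted p = 1.94e-05). Sucnr1, the succinate receptor that intestinal tuft cells use to detect protists and helminths, was at 0.247, 0 and 0.84 CPM in the IL-25+ libraries and 0.788, 0.806 and 0.0859 CPM in the IL-25- libraries, and did not pass (adjusted p = 0.792).

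The purine and prostaglandin receptors that passed were lower, other than P2rx4. P2ry1, a receptor for ADP, was at 0, 0.0422 and 0.162 CPM in the IL-25+ libraries and 7.15, 6.09 and 16.2 CPM in the IL-25- libraries (-7.31 ± 1.22, adjusted p = 0.00258). P2ry2, a receptor for ATP and UTP, had 1.23, 7.05 and 15.1 against 101, 53.9 and 45.8 CPM (-3.21 ± 0.75, adjusted p = 0.0132), a call lost in the fit of all 12 libraries (0.0683), with no filter on low counts (0.0996) and without IL-25+ replicate 2 (0.0561). The ATP-gated channel P2rx4 was the purine receptor that rose, from 62.6, 69.7 and 31.2 to 115, 174 and 154 CPM (1.33 ± 0.28, adjusted p = 0.00903). Ptger4, a receptor for prostaglandin E2, fell from 64.9, 36.3 and 46.7 to 4.65, 6.67 and 5.81 CPM (-3.26 ± 0.36, adjusted p = 0.000289). Ptger3 (-3.54 ± 1.07, adjusted p = 0.0395) was also called lower, a call lost without IL-25- replicate 1 (0.0624), without IL-25- replicate 2 (0.0842), without IL-25- replicate 3 (0.147), without IL-25+ replicate 1 (0.0522) and without IL-25+ replicate 2 (0.0939). The same held for Lpar2 (-1.97 ± 0.52, adjusted p = 0.0226), lost in the fit of all 12 libraries (0.0604), without IL-25- replicate 2 (0.0667) and without IL-25- replicate 3 (0.0804). The list had 3 lower members without IL-25- replicate 3 or without IL-25+ replicate 2.

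Enzymes of leukotriene and prostaglandin metabolism went both ways, with both cyclooxygenases and the leukotriene C4 branch higher. Of 21 tested genes 9 were higher and 4 lower, with a median of -0.60 (-0.28 without IL-25- replicate 1, and 0.72 under the stricter filter). Alox5, the lipoxygenase that starts leukotriene synthesis, had 1567, 1665 and 1435 CPM in the IL-25+ libraries against 12.5, 4 and 0.573 CPM (8.05 ± 0.96, adjusted p = 0.000631). Ltc4s, which makes leukotriene C4, had 41.1, 35.4 and 33.9 against 0.602, 0.645 and 0.0286 CPM (6.34 ± 0.79, adjusted p = 0.000551). Lta4h, which makes leukotriene B4 from the same precursor, did not pass, at 10.3, 15.3 and 16.2 against 21.5, 22.4 and 14 CPM (-0.60 ± 0.36, adjusted p = 0.27). Of the cyclooxygenases, the constitutive Ptgs1 had 2088, 1441 and 1698 against 37.2, 30.0 and 7.39 CPM (6.06 ± 0.51, adjusted p = 7.81e-05), and the inducible Ptgs2 had 88.9, 171 and 135 against 2.84, 5.74 and 1.35 CPM (5.22 ± 0.53, adjusted p = 0.000187). Hpgds, the prostaglandin D2 synthase whose start region is printed above, rose from 5.16, 1.03 and 0.172 to 380.3, 469.9 and 497 CPM (7.65 ± 0.99, adjusted p = 0.000957). Every IL-25+ library exceeded every IL-25- library in these 5 called enzymes. Hpgd, which inactivates prostaglandins, rose as well, from 55.1, 90.8 and 86.6 to 232, 319.7 and 264 CPM (1.63 ± 0.30, adjusted p = 0.00433). Lower genes included the prostaglandin transporter Slco2a1, from 875, 776 and 1113 to 201, 269.8 and 224 CPM (-2.18 ± 0.28, adjusted p = 0.000688), and the reductase Ptgr1, from 129.9, 154 and 196 to 15.2, 14.9 and 13.8 CPM (-3.64 ± 0.31, adjusted p = 8.37e-05).

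In the acetylcholine list the synthesising enzyme rose and both esterases fell. Chat, which makes acetylcholine, had 297, 279 and 298 CPM in the IL-25+ libraries and 1.36, 0.129 and 0.0573 CPM in the IL-25- libraries (8.93 ± 0.93, adjusted p = 0.000316). It was 1 of 7 tested genes to rise (2 without IL-25+ replicate 2) and 4 were called lower (2 without IL-25- replicate 2). The median of -0.88 was -0.47 and -0.37 without IL-25- replicates 1 and 3, and -1.41 without IL-25+ replicate 1. Bche, which splits choline esters, fell from 129, 155 and 214 to 22.1, 16.9 and 20.2 CPM (-3.28 ± 0.33, adjusted p = 0.000202). Ache, the acetylcholinesterase, had 1.06, 0.0844 and 0.258 CPM against 9.16, 12.2 and 4.15 CPM (-4.29 ± 1.03, adjusted p = 0.0151), a call lost without IL-25- replicate 2 (0.0654). The muscarinic receptor Chrm3, known from gallbladder contraction and epithelial secretion, had 15.7, 19.2 and 6.59 against 43.3, 40.3 and 58.6 CPM (-1.97 ± 0.46, adjusted p = 0.0138), and its call was lost in the fit of all 12 libraries (0.0512) and without IL-25- replicate 3 (0.0516). For Chat, Bche and Ache the groups did not overlap.

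Cytokines and receptors of type 2 immunity went both ways. Of 16 tested, 4 were higher and 4 lower, with a median of 0.58 (-0.02 with no filter on low counts, where 21 were tested). The median was 0.37 and 0.32 without IL-25- replicates 1 and 2, and 0.31 and 0.32 without IL-25+ replicates 1 and 2. Il17rb, the IL-25 receptor chain that tuft cells carry themselves, had 197, 132 and 168 CPM in the IL-25+ libraries against 5.38, 4.35 and 0.487 CPM (5.54 ± 0.69, adjusted p = 0.00055). The receptor for IL-4 and IL-13 is made of Il4ra and Il13ra1, and its chains moved in opposite directions. Il13ra1 rose from 83.4, 81.4 and 75.6 to 503, 670.5 and 632 CPM (2.75 ± 0.21, adjusted p = 5.19e-05), and Il4ra fell from 326, 276 and 217 to 174, 139 and 135 CPM (-1.0 ± 0.19, adjusted p = 0.00481). The groups did not overlap in either chain. Il17re, the receptor for IL-17C, fell from 159.7, 155 and 166 to 56.1, 64.8 and 45.9 CPM (-1.70 ± 0.25, adjusted p = 0.00128). Il17ra, the chain that pairs with both Il17rb and Il17re, had 146, 74.8 and 102 against 82, 61.1 and 55.9 CPM and did not pass (adjusted p = 0.178). The other alarmins were low: Tslp had 37, 60 and 28 counts in the IL-25+ libraries and 0, 0 and 7 in the IL-25- libraries (adjusted p = 0.131; 0.0334 without IL-25- replicate 3). Il33 had 1, 6 and 1 counts against 171, 23 and 92 (-4.39 ± 1.41, adjusted p = 0.0485), a call lost in limma-voom (0.0909), with no filter on low counts (0.0982), with the replicate block (0.11), without IL-25- replicate 1 (0.128), without IL-25- replicate 2 (0.0812), without IL-25- replicate 3 (0.131), without IL-25+ replicate 1 (0.126) and without IL-25+ replicate 3 (0.11).

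Signal transducers and shared receptor chains were read beside them. Stat6, the factor activated by IL-4 and IL-13, had 182, 168 and 219 CPM against 158, 149 and 131 CPM and did not pass (0.22 ± 0.19, adjusted p = 0.439). Socs3, a feedback inhibitor of cytokine signalling, fell from 219.7, 222 and 178 to 39.5, 25.3 and 23.6 CPM (-2.96 ± 0.26, adjusted p = 8.55e-05). Il10rb, a chain shared by the IL-10 and IL-22 receptors, rose from 12.6, 12.2 and 12 to 68.7, 66 and 84.2 CPM (2.41 ± 0.27, adjusted p = 0.000321). Il22ra1, the other chain of the IL-22 receptor, fell from 17.8, 28.4 and 17.1 to 0, 0.0422 and 0.162 CPM (-8.30 ± 0.92, adjusted p = 0.000298). In Il10rb and Il22ra1 the groups did not overlap, in opposite directions.

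A set of kinases, phosphatases and adaptors best known from blood cells was higher in IL-25+ cells: 19 of 27 tested genes rose, none fell (1 without IL-25+ replicate 2) and the median was 5.19. Ptprc, the leukocyte phosphatase CD45, had 601, 557 and 685 CPM in the IL-25+ libraries and 1.37, 1.58 and 0.2 CPM in the IL-25- libraries (9.10 ± 0.61, adjusted p = 2.68e-05). Pik3r5, the regulatory subunit of phosphoinositide 3-kinase gamma, had 4725, 5587 and 4885 against 13.4, 20.5 and 3.61 CPM (8.59 ± 0.61, adjusted p = 3.47e-05). Its catalytic partner Pik3cg had 1432, 1535 and 1517 against 10.5, 4.19 and 1.78 CPM (8.02 ± 0.59, adjusted p = 4.1e-05), so both subunits were high in the same libraries. The lipid phosphatases that remove what this kinase makes were higher too: Inpp5d had 591, 612 and 482 CPM against 2.19, 0.29 and 0.0573 CPM (9.22 ± 1.02, adjusted p = 0.000427) and Inpp5j had 524, 481 and 435 against 12.3, 12.3 and 10.9 CPM (5.19 ± 0.22, adjusted p = 5.7e-06). Fyb, an adaptor of T cell adhesion, had 3663, 3694 and 3417 against 16, 3.06 and 0.659 CPM (9.06 ± 1.10, adjusted p = 0.000688). Lyn rose from a higher base, 42.3, 70.9 and 56.5 CPM, to 303, 422 and 343 CPM (2.49 ± 0.29, adjusted p = 0.000375).

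Other kinases and adaptors of the list did not pass. Syk had 0, 1.39 and 0.0323 CPM in the IL-25+ libraries and 6.23, 12.8 and 3.55 CPM in the IL-25- libraries (-4.06 ± 1.59, adjusted p = 0.0948; 0.00539 without IL-25+ replicate 2). Lcp2, a T cell adaptor, had 2.08, 2.02 and 0 against 0.355, 0.226 and 0 CPM (adjusted p = 0.332), and Pik3cd, the leukocyte delta isoform, had 8.18, 3.16 and 0.0323 against 4.16, 6.61 and 3.69 CPM (adjusted p = 0.818). The kinase Tec had 198, 131 and 123 CPM against 138, 138 and 108 CPM (0.09 ± 0.23, adjusted p = 0.822). Many defining markers of leukocytes had no count. The T cell genes Cd8b1, Trac, Trbc1 and Nkg7, the B cell genes Ms4a1, Cd79a, Jchain, Iglc2 and Pax5, the macrophage gene Cd163 and 10 of the granulocyte and mast cell genes were at 0 in all 6 libraries. The 17 T cell genes summed to 4.05, 8.02 and 18 CPM in the IL-25+ libraries and 7.32, 17.3 and 15.3 CPM in the IL-25- libraries, and none was called. The 16 macrophage and dendritic cell genes summed to 31.7, 23.9 and 7.78 CPM in the IL-25+ libraries and 63, 255 and 48.7 CPM in the IL-25- libraries, where the highest value held 230 CPM of Itgam. Of these genes 4 were tested, 1 was called lower (2 without IL-25+ replicate 1 or 2) and none higher. What part leukocytes have in the levels of this list was not tested.

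Genes of the microvillus core and the cytoskeleton rose in most cases: 18 of 27 tested were higher and 4 lower (2 without IL-25+ replicate 2 or 3), with a median of 1.96. Villin, Vil1, which bundles actin in all brush borders, had 1431, 1162 and 1162 CPM in the IL-25+ libraries and 598, 347 and 277 CPM in the IL-25- libraries (1.5 ± 0.24, adjusted p = 0.00213). Espn, an actin bundler of sensory cells, had 346, 241 and 198 against 3.68, 3.61 and 0.974 CPM (6.48 ± 0.48, adjusted p = 4.32e-05). Lcp1, the leukocyte plastin, had 661, 714 and 655 against 39.4, 40.6 and 39.6 CPM (3.92 ± 0.22, adjusted p = 1.2e-05), whereas the intestinal plastin Pls1 had 57.3, 90.9 and 96.4 against 186, 139 and 369.6 CPM (-1.74 ± 0.45, adjusted p = 0.0218). The Pls1 call was lost with no filter on low counts (0.0645), without IL-25+ replicate 1 (0.0861), without IL-25+ replicate 2 (0.0624) and without IL-25+ replicate 3 (0.056). The cadherins that link microvillus tips were both higher: Cdhr5 at 3459, 3884 and 2997 against 136, 50.0 and 54.7 CPM (5.32 ± 0.40, adjusted p = 4.32e-05) and Cdhr2 at 2130.0, 1960.1 and 1972 against 32.3, 2.32 and 1.15 CPM (7.39 ± 1.24, adjusted p = 0.00338), the latter lost with no filter on low counts (0.0688). Among the proteins that tie actin to the membrane, Ezr fell from 743, 550.1 and 442 to 178, 147 and 210.2 CPM (-1.83 ± 0.21, adjusted p = 0.000343). Its relative Msn rose from 13, 2.35 and 0 to 294, 245 and 172 CPM (5.50 ± 1.33, adjusted p = 0.0176), a call lost with no filter on low counts (0.161) and without IL-25- replicate 2 (0.0893), and Rdx did not pass (0.38 ± 0.23, adjusted p = 0.28). Eps8, which caps the bundle's growing end, fell from 1183, 746 and 608 to 237, 311 and 200.2 CPM (-1.88 ± 0.26, adjusted p = 0.000989).

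Genes with roles in neurons were raised in part, 9 of 25 tested against 1 lower (2 without IL-25- replicate 3). The median of 1.02 was 0.21 without IL-25+ replicate 1, and 0.68 and 0.59 without IL-25- replicates 2 and 3. Nrgn, a calmodulin-binding protein of dendrites, had 381, 200.2 and 229 CPM in the IL-25+ libraries against 0.34, 0.193 and 0.63 CPM (9.25 ± 0.58, adjusted p = 1.86e-05). Rab3b, a GTPase of regulated secretion, had 117, 90.4 and 102 against 0.185, 0.0322 and 0.0573 CPM (9.78 ± 0.52, adjusted p = 1.05e-05). Nrep, a growth-associated protein, had 299, 249.8 and 274 against 5.75, 3.93 and 6.27 CPM (5.50 ± 0.32, adjusted p = 1.46e-05). All IL-25- libraries were under 10 CPM in these genes. Vamp2, a vesicle fusion protein, rose from an already high 106, 81.2 and 98.3 CPM to 452, 425 and 412 CPM (2.01 ± 0.21, adjusted p = 0.000259). Its plasma membrane partners Snap25 (adjusted p = 0.258) and Stx1a (adjusted p = 0.341) did not pass, nor did the vesicle protein Syp (adjusted p = 0.641). Ddc, which makes serotonin and dopamine, was the member that fell, from 24.4, 17.5 and 24.7 to 2.64, 3.71 and 1.78 CPM (-3.20 ± 0.49, adjusted p = 0.00161).

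Of 27 tested ion channels and calcium pumps, 10 were higher and 4 lower, with 2 lower without IL-25- replicate 1 or 2 or without IL-25+ replicate 3. The median of 0.79 was 0.01 without IL-25+ replicate 1, 0.51 without IL-25+ replicate 2 and 0.32 without IL-25+ replicate 3. Atp2a3, a calcium pump of the endoplasmic reticulum, had 3044, 2955 and 2918 CPM in the IL-25+ libraries against 48.2, 32.9 and 38.1 CPM (6.07 ± 0.25, adjusted p = 5.52e-06). Its ubiquitous relative Atp2a2 did not pass, at 354, 427 and 434 against 557, 527 and 496 CPM (-0.54 ± 0.19, adjusted p = 0.0682). Atp2b2, a plasma membrane calcium pump of hair cells and neurons, went from 0.201, 0.0967 and 0.115 to 146, 163 and 116 CPM (9.77 ± 0.40, adjusted p = 5.43e-06). Cacna2d2, an auxiliary subunit of voltage-gated calcium channels, had 582, 567 and 567 against 7.55, 3.45 and 0.143 CPM (7.22 ± 1.02, adjusted p = 0.00144). Relatives of one family parted: Ano7 had 1594, 1624 and 1559 against 28.8, 22.4 and 11.7 CPM (6.14 ± 0.30, adjusted p = 9.59e-06), and Ano1, the calcium-activated chloride channel of secretory epithelia, had 51, 15.1 and 49.7 against 632, 493 and 479 CPM (-3.95 ± 0.43, adjusted p = 0.000289). Kcne3, a potassium channel subunit that supports chloride secretion, fell from 53.1, 89.9 and 36.2 to 1.8, 2.02 and 4.1 CPM (-4.62 ± 0.48, adjusted p = 0.000217).

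Regulators of G protein signalling, which shorten receptor signals, were higher for 7 of 13 tested and lower for 1, with a median of 2.73. Besides Rgs13, Rgs2 rose from 59.9, 57 and 77.8 to 1396, 1288 and 1637 CPM (4.28 ± 0.29, adjusted p = 2.71e-05), and Rgs14 went from 0.0772, 0 and 0 to 20.4, 18.6 and 5.94 CPM (8.63 ± 1.18, adjusted p = 0.000958). Rgs6, a form that couples to the G protein beta subunit Gnb5, had 61.7, 62.2 and 79.2 against 0.0927, 0.548 and 0.0859 CPM (8.10 ± 0.72, adjusted p = 9.27e-05). Its exons share 77 bases with an antisense gene. Rgs17 was the member called lower, at 0.599, 0.0422 and 0.0646 against 8.84, 6.41 and 1.57 CPM (-4.63 ± 1.28, adjusted p = 0.0276), and the call was lost without IL-25- replicate 1 (0.0976), without IL-25- replicate 2 (0.0811), without IL-25+ replicate 2 (0.0665) and without IL-25+ replicate 3 (0.0655).

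Some genes had counts in one gate only at this depth. Of the genes tested, 62 had no count in any IL-25- library and 63 none in any IL-25+ library. Of the 12 largest fitted rises among genes with at least 10 CPM, groups that did not overlap and a call also without IL-25- replicate 1, 8 had no IL-25- count, and their folds are lower bounds set by 3 counts over the IL-25- group. Gm28465, a predicted gene, had 1874, 1652 and 2274 counts in the IL-25+ libraries, at least 3043-fold higher. Tnfrsf8, the receptor CD30 of activated lymphocytes, had 1250, 623 and 1150 counts, at least 1586-fold higher, and Ctnna3, an alpha catenin, had 582, 814 and 1020 counts, at least 1267-fold higher. Nrg3, a neuregulin that binds the receptor Erbb4, had 549, 360 and 378 counts, at least 675-fold higher. Gm17660 (at least 845-fold), the myelin protein gene Mag (at least 579.7-fold), 9530052E02Rik (at least 533-fold) and Enthd1 (at least 436-fold) were also without IL-25- counts. Gm17660 shares 231 exon bases with Gm43333 on its own strand and 9530052E02Rik shares 162 with Irs2 on the other, so their reads cannot be assigned with certainty. Tlr9, the sensor of unmethylated DNA, had 1567, 1936 and 4049 counts against 1, 0 and 0, a ratio of 11885 (95% interval 2132 to 469510.0). Tcerg1l had 1542, 957 and 1406 counts against 1, 0 and 0, a ratio of 6146 (95% interval 1102 to 242800.0). The intervals cover counting error only. Edil3, an integrin ligand, had 107, 112 and 148 CPM against 0.0772, 0 and 0 CPM (11.50 ± 0.66, adjusted p = 1.26e-05).

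Read as reads per kilobase of exon and library size (RPKM), which allows genes to be compared, the most abundant of the genes that rose by at least 2 on the log2 scale were Sh2d6 at a mean of 4588, Rgs13 at 1935, Cdhr5 at 1258, Spib at 1067, Pik3r5 at 913, Sh2d7 at 871, Trpm5 at 841, Adh1 at 817, Avil at 739 and Fyb at 667. Adh1, a class I alcohol dehydrogenase that also oxidises retinol, had 2026, 1876 and 1570.2 CPM against 36, 5.25 and 16.8 CPM (6.43 ± 0.66, adjusted p = 0.000201). Its exons share 136 bases with the antisense gene Gm16559. Of 294 genes named here, 88 share exon bases with a gene on the opposite strand, among them Fdft1 (774 bases), Ccnd1 (1100), Nrg4 (368) and Trpm5 (220), and the counts cannot assign reads of such stretches to either gene. On the same scale the most abundant genes that fell were mt-Co1 at 32494 in IL-25- cells, Dmbt1 at 6714, Muc1 at 2374, Zfp36 at 2184, Clu at 1879.5, Dusp1 at 1557, Egr1 at 1453, Cldn2 at 1154, Ambp at 1129.5 and Krt19 at 950.0. Dmbt1, a secreted scavenger protein of mucosal surfaces, had 45933, 63561 and 32642 CPM in the IL-25- libraries and 3042, 6236 and 4969 CPM in the IL-25+ libraries (-3.44 ± 0.36, adjusted p = 0.000227). Ambp, a plasma protein precursor made by liver, fell from 1541, 1820.5 and 1413 CPM in the IL-25- libraries to 118, 173 and 236 CPM (-3.33 ± 0.29, adjusted p = 8.37e-05).

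Lineage factors of the gallbladder and bile duct went both ways: 7 of 22 tested were higher in IL-25+ cells and 10 lower, with a median of -0.63 (-0.37 without IL-25- replicate 1). Hes1, a Notch target that keeps biliary identity, fell from 461, 176 and 633 to 34.4, 31.1 and 33.4 CPM (-3.90 ± 0.50, adjusted p = 0.000641). Onecut2, a biliary factor (-1.87 ± 0.28, adjusted p = 0.00149), and Hhex, a regulator of foregut buds (-2.56 ± 0.28, adjusted p = 0.000278), also fell. Prox1, known from liver, lymphatic and tuft lineages, rose from 37.4, 29.5 and 20.7 to 691, 531 and 693 CPM (4.32 ± 0.23, adjusted p = 1.05e-05). Sox17, the factor that sets gallbladder fate in the embryo, was present in both gates, at 53.6, 50.9 and 53 against 97.2, 77.9 and 158 CPM (-1.30 ± 0.36, adjusted p = 0.0264). The Sox17 call was lost in the fit of all 12 libraries (0.211), without IL-25- replicate 3 (0.0574), without IL-25+ replicate 1 (0.083), without IL-25+ replicate 2 (0.083) and without IL-25+ replicate 3 (0.0808). Hnf4a, Foxa2 and Tead1 did not pass (adjusted p = 0.0519, 0.177 and 0.826), but Hnf4a passed in most alternatives, with the lowest adjusted p without IL-25- replicate 1 (0.00943). Yap1, the effector of the Hippo pathway, fell by 1.67 ± 0.27 (adjusted p = 0.00223).

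Surface and structural genes of biliary epithelium were lower in 13 of 27 tested and higher in 5, with a median of -1.14. Krt19 fell by 3.39 ± 0.27 (adjusted p = 6.04e-05) and its partner Krt7 from 267, 228 and 148 to 20.2, 41.8 and 22.1 CPM (-3.05 ± 0.34, adjusted p = 0.000321). Spp1, osteopontin, fell from 478, 522 and 653 to 50.6, 41.4 and 66.1 CPM (-3.58 ± 0.30, adjusted p = 7.53e-05). The secreted chaperone clusterin, Clu, fell from 6524, 6656 and 6199 to 861, 1028 and 996 CPM (-2.91 ± 0.22, adjusted p = 4.4e-05), and was still abundant in the IL-25+ libraries. Annexins of epithelial membranes parted: Anxa13 fell from 651, 548 and 555 to 58.4, 75.3 and 50.7 CPM (-3.40 ± 0.24, adjusted p = 3.56e-05), and Anxa4 rose from 1088, 974 and 958 to 2349, 2841 and 2902 CPM (1.27 ± 0.20, adjusted p = 0.00194). Epcam itself rose by 1.46 ± 0.18 (adjusted p = 0.000545), while Krt8 (0.67 ± 0.30, adjusted p = 0.138) and the adhesion protein Cdh1 (-0.48 ± 0.21, adjusted p = 0.141) did not pass. Krt8 passed without IL-25- replicate 1 (0.0285) and Cdh1 without IL-25- replicate 3 (0.0282).

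No tested gene of bile acid handling was higher in IL-25+ cells: 10 of 22 fell (5 without IL-25- replicate 1 and 5 under the stricter filter), with a median of -1.72. Slc10a2, the apical sodium-dependent bile acid transporter, had 46.1, 52.5 and 43.2 CPM in the IL-25- libraries and 1.59, 6.92 and 1 CPM in the IL-25+ libraries (-4.04 ± 0.72, adjusted p = 0.0038). Nr1h4, the bile acid receptor FXR, fell from 72.2, 62.8 and 50.8 to 2.36, 5.06 and 13.1 CPM (-3.32 ± 0.57, adjusted p = 0.00314). Fabp6, which carries bile acids inside the cell, had 129, 153 and 271 counts in the IL-25- libraries and none in the IL-25+ libraries, at least 117-fold lower. Fgfr3 fell from 104, 108 and 55 to 15.6, 19.4 and 17.8 CPM (-2.45 ± 0.28, adjusted p = 0.000342). Fgf15, the hormone that FXR induces in the ileum, had 159, 24 and 26 counts in the IL-25- libraries and none in the IL-25+ libraries, and its call was lost with the replicate block (0.0514) and without IL-25- replicate 1 (0.0618). The export pump Abcc3, which moves conjugated bile acids, was high in both gates, at 416, 442 and 500.0 against 394, 483 and 304 CPM (0.06 ± 0.19, adjusted p = 0.844).

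Most called genes of bicarbonate, chloride and water transport were lower in IL-25+ cells, with 15 of 34 tested genes lower and 3 higher, and a median of -1.90. Slc4a4, which brings bicarbonate in across the basal membrane, fell from 2561, 2971 and 2100.5 to 202, 215 and 243 CPM (-3.67 ± 0.21, adjusted p = 1.21e-05). The apical chloride-bicarbonate exchanger Slc26a3 fell from 579, 519 and 741 to 26.4, 38 and 86.3 CPM (-3.81 ± 0.47, adjusted p = 0.000562). Cftr, the chloride channel mutated in cystic fibrosis, fell from 30.8, 30.7 and 13.4 to 1.62, 3.42 and 1.45 CPM (-3.62 ± 0.53, adjusted p = 0.00139). Carbonic anhydrases, which make bicarbonate, had log2 fold changes of -1.85 ± 0.22 for Car2 (adjusted p = 0.000401), -3.98 ± 0.34 for Car4 (adjusted p = 7.69e-05), -3.63 ± 0.44 for Car9 (adjusted p = 0.000489) and -3.69 ± 0.66 for Car12 (adjusted p = 0.00366). The water channel Aqp1 fell from 1286, 1452 and 1213 to 153, 219 and 109 CPM (-3.19 ± 0.30, adjusted p = 0.000127). The members that rose were the anion exchanger Slc4a2, by 1.03 ± 0.24 (adjusted p = 0.0131), the bicarbonate cotransporter Slc4a7, by 1.80 ± 0.28 (adjusted p = 0.00182), and the glucose transporter Slc2a1, by 2.27 ± 0.20 (adjusted p = 9.49e-05). The groups did not overlap in any of these genes. Slc26a9 (-2.67 ± 1.17, adjusted p = 0.137; 0.0222 without IL-25+ replicate 3) and the sodium channel subunit Scnn1a (0.64 ± 0.40, adjusted p = 0.288) did not pass.

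Mucins and the enzymes that build their sugars were lower in 14 of 22 tested genes and higher in 2, with a median of -2.13. Muc1, a membrane mucin of ducts, had 4066, 5504 and 7140.0 CPM in the IL-25- libraries and 478, 740.3 and 511 CPM in the IL-25+ libraries (-3.47 ± 0.37, adjusted p = 0.000254). Muc4 fell from 1719.6, 2154 and 2988 to 76.4, 254 and 190.0 CPM (-3.92 ± 0.51, adjusted p = 0.000713) and Muc3 from 1127, 1323 and 1375 to 38.9, 85.9 and 56.8 CPM (-4.56 ± 0.37, adjusted p = 6.35e-05). Tff3, a trefoil peptide secreted with mucus, fell from 44.9, 25.3 and 84.1 to 1.23, 2.24 and 2.29 CPM (-4.98 ± 0.62, adjusted p = 0.000572). The gel-forming Muc5ac, Muc5b and Muc2 did not pass, and the IL-25- values of Muc2 were 105, 4.22 and 2.61 CPM, with the highest in the replicate that carries intestinal transcripts. Spdef, a factor of goblet and tuft cells, rose from 1.75, 1.48 and 0.0859 to 23.6, 17.6 and 12.6 CPM (3.97 ± 0.89, adjusted p = 0.011), and the fucosyltransferase Fut2 from 325, 337 and 411 to 938, 1025 and 839.6 CPM (1.20 ± 0.24, adjusted p = 0.00702).

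Tight junction genes were lower in 9 of 24 tested and higher in 2 (1 without IL-25- replicate 1 or any IL-25+ replicate), with a median of -1.0 (-0.59 without IL-25- replicate 1). Cldn2, a claudin that forms a pore for sodium and water, fell from 4332, 4106 and 3074 to 289, 319 and 269.7 CPM (-3.85 ± 0.21, adjusted p = 1.05e-05). Cldn8, a sealing claudin, fell from 26.1, 35.7 and 33.7 to 5.78, 0.717 and 3.59 CPM (-3.43 ± 0.68, adjusted p = 0.00608), and the scaffold Tjp1 from 1785, 1060.1 and 1328 to 392, 368 and 373 CPM (-2.03 ± 0.23, adjusted p = 0.000323). Cldn18, a claudin of stomach and lung, rose from 0.139, 0.193 and 0.0286 to 7.22, 9.96 and 28.9 CPM (6.86 ± 0.93, adjusted p = 0.000922). Cldn3, Cldn4 and Cldn7 did not pass (adjusted p = 0.0742, 0.153 and 0.8). Cldn3 passed without IL-25- replicate 3 (0.0497) and Cldn4 without IL-25+ replicate 1 (0.0371).

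Called genes of cholesterol synthesis rose, and the called uptake and export genes went both ways. Of 40 tested genes 11 were higher and 5 lower (2 lower without IL-25- replicate 1 or 3, and 3 without each of the others), with a median of 0.52 (0.81 without IL-25- replicate 1). Fdps, an enzyme of the mevalonate pathway, rose from 13, 11.2 and 8.39 to 58.4, 56.1 and 48.5 CPM (2.19 ± 0.28, adjusted p = 0.000607). Hmgcs1, which makes the pathway's precursor, rose by 1.40 ± 0.18 (adjusted p = 0.000691) and the squalene enzymes Fdft1 and Sqle by 1.55 ± 0.29 (adjusted p = 0.00453) and 1.63 ± 0.29 (adjusted p = 0.00343). Soat1, which stores cholesterol as esters, had 98.1, 167 and 171 CPM against 12, 11.7 and 12.3 CPM (3.43 ± 0.31, adjusted p = 0.000107), and the exporter Abca1 had 221, 271 and 253 against 27.1, 58.4 and 39.9 CPM (2.40 ± 0.32, adjusted p = 0.00083). Npc1l1, the transporter that takes up cholesterol from bile and gut lumen, fell from 119.7, 70.3 and 101 to 4.41, 18.3 and 7.98 CPM (-3.39 ± 0.54, adjusted p = 0.00209).

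Detoxification genes mostly fell in the IL-25+ gate: 29 of 42 tested fell and 1 rose (2 without IL-25- replicate 3), with a median of -2.85. Gsta4, a glutathione transferase for lipid peroxidation products, fell from 616, 621 and 487 to 32, 50.8 and 58.4 CPM (-3.75 ± 0.27, adjusted p = 3.68e-05). Aldh1a1, which makes retinoic acid from retinal, fell from 427, 391 and 262 to 31.5, 35.9 and 43.8 CPM (-3.41 ± 0.22, adjusted p = 2.3e-05), opposite in direction to Adh1, the member that rose. The sulfotransferase Sult1a1 fell from 208, 168 and 192 to 13.7, 13.4 and 26.9 CPM (-3.56 ± 0.34, adjusted p = 0.000134). The cytochromes Cyp2c65 (-3.87 ± 0.40, adjusted p = 0.000207), Cyp3a13 (-4.58 ± 0.51, adjusted p = 0.000314) and Cyp2s1 (-3.38 ± 0.47, adjusted p = 0.00106) fell too. The glucuronosyltransferase Ugt2b34 fell from 981, 1059 and 1390.1 to 101, 201 and 162 CPM (-3.07 ± 0.35, adjusted p = 0.000369). Gstp1 (-0.47 ± 0.34, adjusted p = 0.362) and the electron donor Por (-0.57 ± 0.26, adjusted p = 0.148) did not pass. Glutathione transferases are near-identical copies in part, and how reads shared between them were counted is not given in the sources used here.

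Genes of epithelial defence were lower in 19 of 39 tested and higher in 2 (1 without any one IL-25- replicate or without IL-25+ replicate 2 or 3), with a median of -2.85 (-1.80 without IL-25- replicate 2). The chemokine Cxcl16 fell from 225, 193 and 135 to 5.64, 6.2 and 12.3 CPM (-4.64 ± 0.36, adjusted p = 5.03e-05). Pigr, which carries antibody into bile, fell from 1797, 3179 and 1406 to 299, 537 and 431 CPM (-2.45 ± 0.33, adjusted p = 0.000911), and the oxidase Duox2 from 931, 1463 and 679 to 62.8, 197 and 98.1 CPM (-3.21 ± 0.45, adjusted p = 0.0011). Pattern receptors took both directions. Tlr4, the receptor for bacterial lipopolysaccharide, fell from 73.8, 55.5 and 59.5 to 3.1, 4.01 and 5.91 CPM (-4.01 ± 0.36, adjusted p = 9.34e-05), and Tlr2 from 110.5, 119 and 165 to 3.49, 16.5 and 13.4 CPM (-3.76 ± 0.58, adjusted p = 0.00174). Tlr9 was the Toll-like receptor that rose, with 55.2, 81.7 and 131 CPM in the IL-25+ libraries, and the adaptor Myd88 did not pass (-0.50 ± 0.30, adjusted p = 0.266). Regulators of NF-kB signalling fell as well, with -2.85 ± 0.26 for Tnfaip3 (adjusted p = 9.88e-05) and -2.29 ± 0.30 for Nfkbiz (adjusted p = 0.00071). Replicate 2 of each gate was the highest library of its gate for some genes that did not pass. The neutrophil chemokine Cxcl5 had 0.0705, 55.3 and 0.0323 CPM in the IL-25+ libraries and 4.34, 669 and 0.601 CPM in the IL-25- libraries, and the iron-binding Lcn2 had 3.77, 115 and 0 and 16.2, 679.7 and 2.46 CPM. Complement C3 had 219.6, 356 and 46.3 and 863, 3572 and 203 CPM, lactoferrin Ltf had 33.5, 106 and 33 and 24.5, 451 and 15.9 CPM, and the integrin Itgam had 0.775, 19.7 and 2.36 and 10.8, 230.2 and 13.2 CPM. C3 was called lower without IL-25- replicate 3 (adjusted p = 0.0336) and in DESeq2 (adjusted p = 0.00574), and Itgam without IL-25+ replicate 2 (adjusted p = 0.0436).

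Signals that pattern epithelia also differed. Of 41 tested genes of the Wnt, Notch, Hedgehog and BMP pathways, 5 were higher and 14 lower, with a median of -0.84. The ligands Shh and Ihh fell from 68, 112 and 109.6 to 2.33, 6.79 and 6.07 CPM (-4.43 ± 0.50, adjusted p = 0.000342) and from 55.7, 45.6 and 48.5 to 1.13, 4.01 and 4.94 CPM (-4.05 ± 0.55, adjusted p = 0.000906). Wnt ligands parted: Wnt5a, of the non-canonical pathway, rose from 35.4, 31.1 and 18.9 to 205, 290.2 and 223 CPM (2.96 ± 0.26, adjusted p = 8.37e-05), while Wnt7b fell from 91.2, 67.8 and 35.6 to 5.04, 7.43 and 6.3 CPM (-3.47 ± 0.36, adjusted p = 0.00022) and Wnt4 from 40.4, 20.9 and 37.6 to 1.16, 2.28 and 2.2 CPM (-4.30 ± 0.50, adjusted p = 0.000399). Notch ligands did as well, with Jag2 rising from 1.36, 0.935 and 0.229 to 40.0, 32.9 and 20.6 CPM (5.12 ± 0.63, adjusted p = 0.000552) and Jag1 falling from 45.9, 24.7 and 26.6 to 5, 3.08 and 2.23 CPM (-3.37 ± 0.45, adjusted p = 0.000846). Lgr5, the stem cell receptor for R-spondins, had 136, 152 and 134 CPM against 2.21, 0.0967 and 0 CPM (7.37 ± 1.24, adjusted p = 0.00336), and its call was lost with no filter on low counts (0.0689). The Wnt target Axin2 did not pass (0.78 ± 1.20, adjusted p = 0.687).

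In the EGF family, the members called higher were neuregulins, and other ligands and receptors were called lower. Of 16 tested genes 3 were higher and 7 lower, with a median of -1.12 (-2.25 without IL-25+ replicate 2). Nrg4 rose from 6.46, 8.74 and 14.1 to 168, 199 and 215 CPM (4.10 ± 0.42, adjusted p = 0.000204), and Nrg2 had 220, 260 and 415 counts against 1, 0 and 0, a ratio of 1408 (95% interval 252 to 55696). With Nrg3, described above, these were the members that rose. Hbegf fell from 633, 512 and 443 to 33.6, 29.1 and 60.7 CPM (-3.83 ± 0.31, adjusted p = 6.04e-05). Among the receptors, Egfr fell from 84.5, 92.7 and 78.7 to 11.6, 10.5 and 9.53 CPM (-3.17 ± 0.26, adjusted p = 6.47e-05) and Erbb2 from 148, 219 and 109 to 41.9, 71.7 and 47.5 CPM (-1.69 ± 0.31, adjusted p = 0.00407), while Erbb3 did not pass (-0.55 ± 0.26, adjusted p = 0.157). Erbb4, a receptor that neuregulins bind directly, had 2.5, 0.211 and 2.13 against 21.4, 7.16 and 10.2 CPM (-3.13 ± 0.88, adjusted p = 0.0295). The Erbb4 call was lost in the fit of all 12 libraries (0.0853), without IL-25- replicate 1 (0.108), without IL-25- replicate 3 (0.069) and without IL-25+ replicate 3 (0.0615).

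Antigen presentation genes passed about as often as others for class I, with 7 of 23 tested against 26.3% of all genes tested. Of these 4 were higher and 3 lower (1 without IL-25+ replicate 1 or 3), and the median was 0.47 (0.86 without IL-25- replicate 1). H2-D1, a classical class I heavy chain, rose from 262, 288 and 134 to 1193, 1069 and 830.2 CPM (2.07 ± 0.26, adjusted p = 0.000549), while H2-K1 did not pass (0.47 ± 0.21, adjusted p = 0.144). B2m, their common light chain, had 211, 259 and 312 against 309, 556 and 511 CPM with overlapping groups (-1.0 ± 0.31, adjusted p = 0.0405), and the call was lost without IL-25- replicate 2 (0.0996), without IL-25- replicate 3 (0.124), without IL-25+ replicate 1 (0.151), without IL-25+ replicate 2 (0.115) and without IL-25+ replicate 3 (0.0744). Class I heavy chains are close copies of each other, which makes counts of single members uncertain. Of 5 tested class II genes 3 were called lower; none were without IL-25- replicate 1 or without IL-25+ replicate 1 or 3, and 1 was without each of the other libraries. Cd74, the class II chaperone, had 2.26, 3.33 and 1.55 CPM against 47.8, 28 and 2.49 CPM (adjusted p = 0.0181), lost in limma-voom (0.0598), without IL-25- replicate 1 (0.0687), without IL-25+ replicate 1 (0.0629) and without IL-25+ replicate 3 (0.0648).

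Of 31 tested interferon-stimulated genes 5 were higher and 3 lower (9 lower in DESeq2 and in the fit of all 12 libraries). In the main fit the list thus passed about as often as other genes, of which 26.3% were called over all genes tested. The median of 0.63 was 0.30 and 0.29 without IL-25- replicates 1 and 3, and 0.15 and 0.24 without IL-25+ replicates 2 and 3. Irf7, a factor that amplifies the interferon response, rose from 10.5, 25.3 and 8.88 to 164, 92.3 and 133 CPM (2.99 ± 0.42, adjusted p = 0.00104), and Stat2 from 69, 77.6 and 45.4 to 297, 346 and 265 CPM (2.12 ± 0.22, adjusted p = 0.000226). Rsad2, the antiviral enzyme viperin, rose from 0.263, 2.16 and 2.43 to 24.9, 34.6 and 58.2 CPM (4.37 ± 0.84, adjusted p = 0.0054). Mx1, an antiviral GTPase, went the other way, from 12.4, 22.9 and 13.7 to 0.423, 0.0844 and 0.355 CPM (-5.96 ± 0.74, adjusted p = 0.000552), as did the membrane protein Ifitm3, from 9.69, 24.6 and 5.35 to 0.247, 0.844 and 0.0969 CPM (-5.15 ± 1.00, adjusted p = 0.00575). Isg15 did not pass (adjusted p = 0.443), so the list did not move in one direction.

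Immediate early and heat shock genes, which cells switch on within minutes of stress or stimulation, were lower in IL-25+ cells in 21 of 34 tested, with none higher (1 without IL-25- replicate 3) and a median of -1.88. Egr1 had 6544, 5319 and 7678 CPM in the IL-25- libraries and 1358, 1345 and 1309 CPM in the IL-25+ libraries (-2.47 ± 0.27, adjusted p = 0.000278). Fos fell from 1414, 1058 and 1349 to 113, 179 and 168 CPM (-3.22 ± 0.28, adjusted p = 8.51e-05) and Atf3 from 1027, 673 and 705 to 78.3, 88.6 and 90.5 CPM (-3.37 ± 0.22, adjusted p = 2.42e-05). Dusp1, a phosphatase that ends kinase signals, fell from 4127, 2882 and 8459 to 596, 491 and 744 CPM (-3.33 ± 0.49, adjusted p = 0.00134), and Btg2, an antiproliferative gene, from 1033, 947 and 915 to 286, 281 and 307 CPM (-1.89 ± 0.18, adjusted p = 0.000149). These are the genes whose start regions with the response element are printed above. Zfp36, which destabilises cytokine messages, fell from 8083, 7939.5 and 6716 to 1627, 1437 and 1637 CPM (-2.43 ± 0.20, adjusted p = 6.22e-05). Among chaperones Hspa5 of the endoplasmic reticulum fell by 1.57 ± 0.28 (adjusted p = 0.004), and Hspa1a (-1.38 ± 0.55, adjusted p = 0.103) and Hsp90aa1 (-0.74 ± 0.32, adjusted p = 0.129) did not pass. Hspa1a passed without IL-25+ replicate 3 (0.0245) and Hsp90aa1 without IL-25- replicate 1 (0.0495). The mitochondrial share of counts was also higher in the IL-25- libraries, at 11.2, 14.2 and 25% against 7.13, 8.66 and 8.83%, and its part in this difference was not tested.

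Of 25 tested proliferation genes 1 was higher (2 without IL-25- replicate 3) and 5 lower (3 without IL-25- replicate 2 or 3), close to the 26.3% called over all genes tested. Mki67, a marker of dividing cells, had 22.1, 20.5 and 2.39 CPM in the IL-25+ libraries and 52.4, 21 and 7.27 CPM in the IL-25- libraries, with overlapping groups (adjusted p = 0.48). The cyclin Ccnd1, which drives entry into the cycle, fell from 1460.2, 1086 and 909 to 97.8, 121 and 108 CPM (-3.53 ± 0.21, adjusted p = 1.66e-05), and the inhibitor Cdkn1b rose from 24.9, 42.2 and 32.2 to 174, 211 and 176 CPM (2.33 ± 0.28, adjusted p = 0.0005). Of 10 tested genes of the mitochondrial genome, mt-Co1 alone was called lower, and 5 were lower without IL-25- replicate 1. Its levels were 9296, 17098 and 14341 CPM in the IL-25+ libraries and 35732, 56954 and 57925 CPM in the IL-25- libraries (-2.07 ± 0.37, adjusted p = 0.00365).

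The 12 largest fitted decreases by the same rule were led by a gene with no count in the IL-25+ libraries. Mup-ps23, annotated as a pseudogene of the major urinary proteins, had 1037, 530 and 163 counts in the IL-25- libraries, at least 366-fold more than a floor of 3 counts over the IL-25+ group, and reads of that family may come from other copies. Bag2, a cochaperone, fell from 23.9, 14.8 and 10.7 to 0.106, 0 and 0.0323 CPM (-8.45 ± 0.92, adjusted p = 0.000274). Edn1, the precursor of endothelin, fell from 17.1, 10.1 and 9.42 to 0.0705, 0.253 and 0 CPM (-6.95 ± 1.13, adjusted p = 0.00228). Htr4, a serotonin receptor of the gut wall and epithelium, fell from 11.4, 10.2 and 13.1 to 0.176, 0.211 and 0.0323 CPM (-6.53 ± 0.87, adjusted p = 0.000808), and Hmga2, a chromatin protein of fetal and growing tissue, from 27.9, 28.7 and 79.7 to 0.282, 1.05 and 1 CPM (-6.12 ± 0.78, adjusted p = 0.000643). Il22ra1 and Mx1, given above, were also among the 12. Others were Tnxb (-7.94 ± 1.03, adjusted p = 0.000714), the prostaglandin F receptor Ptgfr (-6.68 ± 1.30, adjusted p = 0.00574), Cnnm1 (-5.98 ± 0.92, adjusted p = 0.00171) and Gm16332 (-5.96 ± 0.95, adjusted p = 0.00208). Bag2, Edn1, Ptgfr, Hmga2 and Cnnm1 share exon bases with genes on the other strand, of which 140 in Hmga2 with 1700006J14Rik.

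Markers of other cell types were read for both gates. Enterocyte genes were lower in 10 of 25 tested (7 without IL-25- replicate 1) and higher in none, with a median of -3.80 that became -1.04 without that library. Some of these had similar levels in all IL-25- replicates: Dpp4, a surface peptidase, had 159, 161 and 169.9 CPM in the IL-25- libraries and 6.98, 11.5 and 7.95 CPM in the IL-25+ libraries (-4.38 ± 0.31, adjusted p = 3.68e-05). Others were high in replicate 1 alone, such as the disaccharidase Sis, with 127, 1.48 and 1.23 CPM in the IL-25- libraries (adjusted p = 0.0913). Of 12 enteroendocrine genes none was called, but Sct and Cpe were called higher without IL-25- replicate 1, and the list's median of -1.96 turned to 2.51. The secretogranin Chgb, for example, had 266, 2.77 and 2.29 CPM in the IL-25- libraries. The hormone gene Sct had 20.3, 2.62 and 1.74 CPM in the IL-25+ libraries and 1.3, 0 and 0 CPM in the IL-25- libraries (adjusted p = 0.137; 0.012 without IL-25- replicate 1), and Cpe, a prohormone peptidase, had 11.8, 19.2 and 7.91 against 5.76, 0 and 0.0859 CPM (adjusted p = 0.242; 0.00306 without it).

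Some genes listed as markers of other cells moved with the gate while their companions were at 0. Kit, a receptor of mast cells and progenitors, had 731, 870.3 and 729.6 CPM in the IL-25+ libraries and 28.5, 11.7 and 7.07 CPM in the IL-25- libraries (5.55 ± 0.45, adjusted p = 6.47e-05), and the mast cell genes Mcpt4, Cpa3, Tpsb2 and Fcer1a had no count in any library. Kit made up nearly all of the sum of the 20 granulocyte and mast cell genes, 731, 881 and 730 CPM in the IL-25+ and 28.8, 12.9 and 7.73 CPM in the IL-25- libraries. Cd79b, a chain of the B cell receptor, had 35.2, 29.2 and 31.8 against 1.17, 1.29 and 1.15 CPM (4.58 ± 0.40, adjusted p = 8.37e-05), with its partner Cd79a at 0; the 11 B and plasma cell genes summed to 35.3, 42.9 and 31.8 CPM against 5.93, 1.48 and 1.20 CPM. Csf1r, the macrophage growth factor receptor, was lower in IL-25+ cells, with 1, 0 and 1 counts against 1175, 114 and 168, an IL-25- over IL-25+ ratio of 463 (95% interval 128 to 3826) and an adjusted p of 0.00118, while Cd163 was at 0. Nefl, a neurofilament, had 168, 103 and 186 against 1.82, 0 and 0.0286 CPM (7.75 ± 1.28, adjusted p = 0.00309), a call lost with no filter on low counts (0.0665), and Sox10 of glia did not pass. The pancreatic protease Ctrb1 fell from 316, 339 and 312 to 53.7, 57.2 and 47.3 CPM (-2.77 ± 0.21, adjusted p = 4.84e-05), lost in the fit of all 12 libraries (0.101), and Cela1, a pancreatic elastase, from 6.52, 8.57 and 17.8 to 0.352, 0 and 1 CPM (-4.84 ± 1.24, adjusted p = 0.0207; lost without IL-25- replicate 3 (0.0956) and without IL-25+ replicate 1 (0.0631)), while 8 other acinar genes of 13 were at 0. The stromal and endothelial genes Lum, Des and Cdh5 were at 0 too.

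The same gates in the small intestine show where the gallbladder difference is larger, smaller or opposite. Here the values come from 1 fit of all 12 libraries, and the difference between tissues was tested as an interaction, for which 1536 of 16636 genes (9.23%) passed. Tissue cannot be told apart from the agent labelled HDM AF647, which the gallbladder groups alone carry. The intestinal gate difference was called for 4529 of 16636 genes (27.2%), with 2405 (14.5%) higher and 2124 (12.8%) lower in IL-25+ cells. Of the 3782 genes called in the fit of the 6 gallbladder libraries, 1946 were called in the same direction in the intestine, 51.5% of the gallbladder calls and 43.0% of the intestinal ones, and 162 in the opposite direction. The calcium-sensing receptor Casr rose in the gallbladder, and in the intestine had 3.32 ± 2.8 CPM (mean ± SD, n = 3) with the reporter and 7.69 ± 4.5 CPM without it, an interaction of 9.97 ± 1.42 (adjusted p = 0.00182). Gpr35 had 16.4 ± 3.65 CPM in intestinal IL-25+ and 43.2 ± 9.49 CPM in intestinal IL-25- cells, with an interaction of 7.58 ± 0.59 (adjusted p = 1.49e-05). Il4ra fell in the gallbladder and had 80.1 ± 12.7 against 37.2 ± 5.26 CPM in the intestine, with an interaction of -2.31 ± 0.30 (adjusted p = 0.000431). Cd24a, which did not pass in the gallbladder, had 17977 ± 1112 against 472 ± 71.5 CPM in the intestine, with an interaction of -5.91 ± 0.44 (adjusted p = 1.04e-05). For Pou2f3 the interaction did not pass (1.23 ± 0.66, adjusted p = 0.291), nor for Dclk1 (2.83 ± 0.95, adjusted p = 0.0938) or Trpm5 (0.41 ± 0.72, adjusted p = 0.802).

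**Figure D5:**
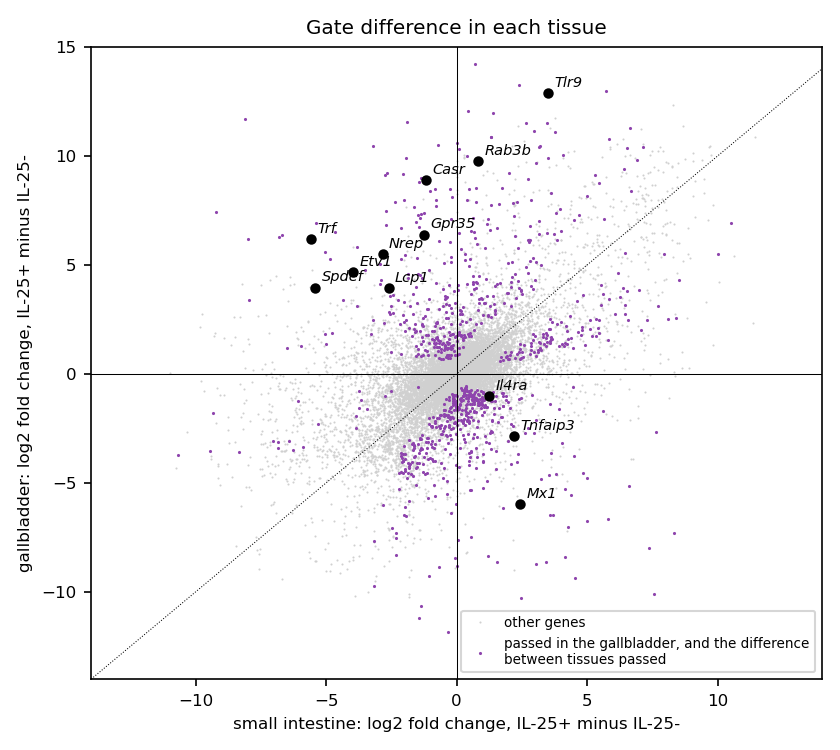
Log2 fold change of IL-25+ over IL-25- cells in the gallbladder (vertical axis, fit of the 6 gallbladder libraries) against the small intestine (horizontal axis, fit of all 12 libraries), one point per gene, with the dotted line marking equal change. Purple points passed both in the gallbladder and in the test between tissues; Casr and Gpr35 lie above the dotted line, and Il4ra and Mx1 below it.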

How the data were processed

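RNA was sequenced from sorted live EpCAM+ cells, with a library chemistry that does not keep strand and single-end reads of 50 bases, per the labels' protocols. The authors deposited 1 table of whole-number counts per gene for 43432 genes. STAR 2.7.2b, the mouse build GRCm38 and DESeq2 1.26 are named in the submitters' processing notes. The counting tool, its strand setting and the annotation release are not given in the sources used here. The table has 11 further columns that no label could be tied to, and these were left aside. Gene identifiers were matched to GENCODE M21 (42548 genes), and the 884 without a match held at most 0.119% of a library's counts.

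Groups were taken from the labels. The 6 gallbladder libraries were tested with edgeR 4.0.16 (R 4.3.3) by a robust two-sided quasi-likelihood test with TMM scaling, a filter at a minimum count of 10, and Benjamini-Hochberg adjustment over all genes tested, at 0.05. Values written as a ± b are the fitted log2 fold change and its standard error, unless called mean ± SD. CPM are counts scaled to an equal library total, without TMM. On simulated counts, the test recovered 3 of 50 genes changed 2-fold, 48 of 50 changed 4-fold and 50 of 50 changed 8-fold, with 4 false calls. The simulation gave every gene the same spread, smaller than the common spread fitted to these libraries, and changed no gene of the lowest levels. Recovery in these libraries can therefore be lower than these counts, and 2-fold changes were largely missed even in the simulation. Alternatives were relative log expression size factors, DESeq2 1.42.0, limma-voom (limma 3.58.1), no filter and a stricter one (5 CPM in 3 libraries), a replicate block, all 12 libraries, no mitochondrial genes, and leaving out each library. Replicates of a gate differed by more than sampling noise. Genes named outside the lists are the 12 largest fitted changes and the 10 highest levels per kilobase in each direction, by the rule in the text. From the lists, the lowest adjusted p, the exceptions and the genes of known role were taken. A few genes that these rules would name are not reported here, but they stay in all counts and medians. The comparison and the lists were chosen with earlier results of these data known.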

Additional observations from a re-analysis of the deposited data

Results flagged for a closer look

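The 9 genes given here were chosen among the named genes that passed the test between tissues, and they are not a ranking. In each, the gallbladder gate difference differed from that in the small intestine by the interaction test of the edgeR fit of all 12 libraries. Positive values mean that the gallbladder change was the more positive. Of all genes in that test, 1536 of 16636 (9.23%) passed. Tissue and the agent labelled HDM AF647 cannot be told apart in these values. Casr had an interaction of 9.97 ± 1.42 (adjusted p = 0.00182) and Gpr35 one of 7.58 ± 0.59 (adjusted p = 1.49e-05). For Il4ra it was -2.31 ± 0.30 (adjusted p = 0.000431) and for Cd24a -5.91 ± 0.44 (adjusted p = 1.04e-05). The antiviral gene Mx1 had 92.5 ± 30.1 CPM (mean ± SD, n = 3) in intestinal IL-25+ and 18.1 ± 7.25 CPM in intestinal IL-25- cells, and an interaction of -8.43 ± 0.74 (adjusted p = 3.71e-05). Nrep had 0.473 ± 0.489 and 3.57 ± 1.24 CPM there, with 8.28 ± 0.85 (adjusted p = 0.000125), and Rab3b had 8.23 ± 2.44 and 4.93 ± 2.43 CPM, with 8.89 ± 0.79 (adjusted p = 4.07e-05). The plastin Lcp1 had 5.6 ± 5.92 and 37.4 ± 2.51 CPM, with 6.47 ± 0.93 (adjusted p = 0.00176), and Spdef had 0.437 ± 0.353 and 20.2 ± 2.64 CPM, with 9.28 ± 1.28 (adjusted p = 0.000621).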

How the results depend on the processing

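With edgeR's quasi-likelihood test, 1888 genes were higher and 1894 lower in gallbladder IL-25+ cells. The calls were 1971 and 1833 with relative log expression size factors, 1913 and 1770 with no filter, 1756 and 1749 under the stricter filter, 2066 and 2390 with all 12 libraries, and 1999 and 1824 without mitochondrial genes. DESeq2 called 2672 and 2635 genes and limma-voom 2352 and 2209. Leaving out 1 library gave 1394 to 1727 higher and 1347 to 1547 lower genes, and 1050 to 1566 genes in the test between tissues, where the main count was 1536. With the replicate number as a block (the replicate block fit), 1817 genes were higher and 1816 lower, and 1296 passed between tissues. By the labels, same-numbered libraries share only a number, and whether they also share an origin was not tested. Their deviations were correlated at 0.126, 0.025 and 0.189 across genes. IL-25+ replicates 1 and 3 correlated best with the IL-25- library of the same number, and IL-25+ replicate 2 with IL-25- replicate 1, at 0.113. Of 221 genes named in the text and called, 196 kept call and direction under every alternative that gave a value and 25 lost the call under at least 1, 11 of them with no filter, 3 with the block and 10 without IL-25- replicate 2; none reversed. Of 56 named genes not called, 21 passed under at least 1 alternative, 10 of them with the block, such as Cxcl5 (0.000388), Lcn2 (0.0254), C3 (0.000642) and Itgam (0.000289). The causes were not tested.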
